A study of Mus musculus with 6 samples.

Results

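The 10 enzymes described here build, sulfate and trim heparan sulfate, and were measured in a mouse dermal fibroblast cell line with and without LAP2alpha. They were chosen by gene symbol (Ext1, Ext2, Ndst1, Ndst2, Hs2st1, Hs6st1, Hs6st2, Sulf1, Sulf2 and Hpse), after it was known that Sulf1 and Hpse are much lower in the knockout, and are 10 of the 28293 genes in the count tables. The 6 RNA-seq libraries of polyadenylated RNA comprise 3 of wild-type cells (WT) and 3 of cells labelled Lap2alpha KO (KO), all grown in DMEM with fetal calf serum. LAP2alpha is an isoform encoded by Tmpo and a nucleoplasmic partner of lamin A and C. How the knockout was made, and whether the replicates are separate cultures or clones, is not given in the sources used here, so every p-value reflects library-to-library spread alone, which may be technical, and a difference between lines cannot be told apart from the loss of LAP2alpha.

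Heparan sulfate is a long sugar chain attached to core proteins such as syndecans, glypicans and perlecan. Inside the Golgi, EXT1 and EXT2 polymerise the chain, N-deacetylase/N-sulfotransferases (NDSTs) place the first sulfates, and 2-O- and 6-O-sulfotransferases add further sulfate groups. After the chain reaches the cell surface, the sulfatases SULF1 and SULF2 remove 6-O-sulfate groups and heparanase (HPSE) cuts the chain. The resulting sulfation pattern sets which growth factors, among them FGFs, Wnts and BMPs, the chain can bind.

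The libraries held between 22159339 and 27281473 counts. Tmpo, the gene whose alpha isoform was targeted, stood at 252 ± 2.65 CPM (a gene's counts per 1e+06 counts of its library; mean ± SD, n = 3) in WT and 129 ± 6.81 CPM in KO, a count that sums all LAP2 isoforms. All 12 fibroblast markers examined were detected in both groups, with a summed level of 7620 to 8096 CPM in WT and 24515 to 26046 CPM in KO, and the part of that difference in the results was not tested. Col1a2 alone stood at 1788 CPM in WT and 10955 CPM in KO. At an edgeR adjusted p under 0.05, 10 markers were higher in KO, Thy1 was lower and P4hb was not called. Among all tested genes 37.7% were higher. Markers of other skin cell types were low, with summed levels of 4.90 to 8.53 CPM for 5 keratinocyte genes, 0.233 to 1.47 CPM for 5 endothelial genes and 0.586 to 1.47 CPM for 3 leukocyte genes over the 6 libraries. Ptprc and Epcam had no reads in KO. Keratinocytes and leukocytes are known sources of heparanase. Summed keratinocyte markers were 6.82 to 8.53 CPM in WT and 4.90 to 6.49 CPM in KO, and the tested ones, Krt10 and Cdh1, were called lower. Summed leukocyte markers were 0.678 to 0.767 CPM in WT and 0.586 to 1.47 CPM in KO, and the tested one, Cd68, was not called. Of the endothelial genes only Cdh5 was tested, and it was called lower, as were 37.5% of all tested genes. The part of keratinocytes and leukocytes in the Hpse result was not tested. In bulk RNA, fewer cells of a type and less RNA per cell cannot be told apart.

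In WT cells the 10 enzymes covered a wide range of levels. To compare genes, each level was divided by the gene's exonic length (CPM per kilobase). Hs6st2 was highest at 44.6 ± 2.45 CPM per kilobase (SD, n = 3), followed by Sulf1 at 21.8 ± 0.517 and Ext2 at 19.8 ± 1.21 CPM per kilobase. Ndst1 (10.3 ± 0.302), Ndst2 (9.50 ± 0.567), Ext1 (8.88 ± 0.233), Hs6st1 (8.88 ± 0.608) and Hs2st1 (8.49 ± 0.300 CPM per kilobase) formed a middle group in which each gene's values overlapped those of the next in the order. Hpse stood at 2.47 ± 0.0396 and Sulf2 at 0.0094 ± 0.0082 CPM per kilobase. Of all tested genes, Hs6st2 was at the 90.1 percentile of length-scaled level in WT and Sulf2 at the 0.571 percentile.

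In KO the order changed, with Sulf1 and Ndst2 further down and Hs2st1 further up. Hs6st2 remained first at 25.4 ± 1.67 CPM per kilobase, then came Ext2 (20.8 ± 0.870), Ndst1 (18.7 ± 0.597), Hs2st1 (13.8 ± 1.04) and Ext1 (13.7 ± 0.940 CPM per kilobase), of which the values of Hs2st1 and Ext1 overlapped. Hs6st1 (7.77 ± 0.492) and Ndst2 (7.03 ± 0.619 CPM per kilobase) also overlapped. Sulf1, second in WT, was eighth in KO at 0.826 ± 0.0417 CPM per kilobase, above Sulf2 (0.300 ± 0.0862) and Hpse (0.147 ± 0.0463 CPM per kilobase). The percentile of Sulf1 among all tested genes went from 81.5 to 17.1, that of Hpse from 37.2 to 3.31 and that of Sulf2 from 0.571 to 7.60.

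**Figure D1:**
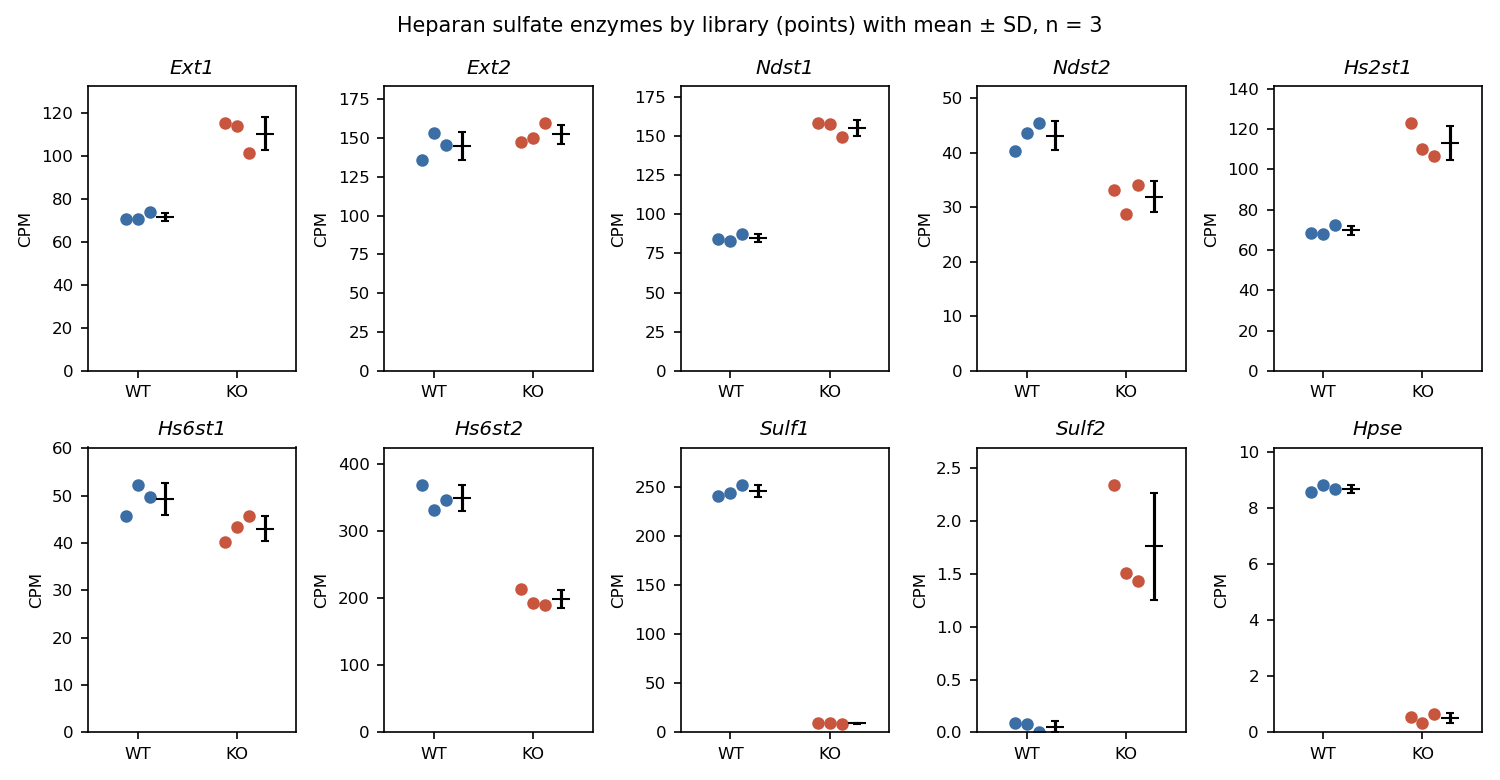
Levels of the 10 enzymes in CPM (linear axes from 0) in each WT (blue) and KO (red) library, with black bars for the mean ± SD of 3 libraries. Sulf1 and Hpse sit near the floor of their panels in all 3 KO libraries, Sulf2 near the floor in all 3 WT libraries, and the WT and KO points of Ext2 overlap.

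Of the 10 enzymes, all passed the low-count filter, 4 were called higher in KO (Ext1, Ndst1, Hs2st1, Sulf2), 5 were called lower (Ndst2, Hs6st1, Hs6st2, Sulf1, Hpse) and Ext2 was not called, at an edgeR adjusted p under 0.05 over all genes. Among all 15081 tested genes 75.1% were called, 37.7% higher and 37.5% lower. The groups stood apart without overlap for 9 of the 10 enzymes and for 76.8% of all tested genes. At least 2-fold differences were called for 3 enzymes (Sulf1, Sulf2 and Hpse) and for 28.1% of all tested genes. The same 3 were past 16-fold, as were 2.02% of all tested genes. Hpse was not past 16-fold when KO replicate 2 was left out (log2 fold change −3.91). Sulf1 and Hpse were known to be much lower before the set was chosen, so neither count tests the enzymes against all genes. The enzymes' median log2 fold change was −0.14, beside 0.01 for all tested genes. Since the set was chosen with this contrast known, the enzymes' own values below describe these libraries and are given without tests, and adjusted p-values appear only for other genes.

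The chain polymerases differed from each other. Ext1 encodes the catalytic partner of the EXT1/EXT2 polymerase complex and lies on chromosome 15 at 53064038 to 53346159 (GRCm38, minus strand). Its level was 70.7, 70.6 and 73.9 CPM in the WT libraries and 115, 114 and 102 CPM in the KO libraries. Every KO library was above every WT library, with a log2 fold change of 0.55 (SE 0.0589). Ext2, the subunit on chromosome 2 that is also required for polymerase activity, stood at 136, 153 and 146 CPM in WT and 147, 150 and 159 CPM in KO. These ranges overlapped, and the log2 fold change was −0.01 (SE 0.0607) and changed sign with the scaling. Ext1 made up 31.0 ± 1.39% of the length-scaled Ext1 and Ext2 level in WT and 39.7 ± 2.65% in KO (SD, n = 3), and the sum of both genes was 28.6 ± 1.25 and 34.4 ± 0.109 CPM per kilobase.

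The N-sulfotransferases differed in direction. Ndst1, the main NDST of many tissues, had 84.3, 82.7 and 87.6 CPM in WT and 158, 158 and 149 CPM in KO, a log2 fold change of 0.79 (SE 0.0501). Ndst2, best known for heparin synthesis in mast cells, had 40.4, 43.7 and 45.5 CPM in WT and 33.1, 28.8 and 34.0 CPM in KO, a log2 fold change of −0.51 (SE 0.0772). Neither gene's groups overlapped. Both contributed about equally in WT, where Ndst1 made up 51.9 ± 1.298% of their length-scaled sum, and in KO its share was 72.7 ± 2.22%. Their sum was 19.8 ± 0.769 CPM per kilobase in WT and 25.8 ± 0.536 in KO.

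Hs2st1, the 2-O-sulfotransferase, acts on uronic acids of the N-sulfated chain and has no relative for this step. Its level was 68.5, 68.1 and 72.5 CPM in WT and 123, 110 and 107 CPM in KO, with a log2 fold change of 0.62 (SE 0.0629). All 3 KO libraries were above the WT libraries, and KO replicate 1 was the highest.

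The 6-O-sulfotransferases were both lower in KO. Hs6st2, on the X chromosome at 51387212 to 51681856, was the most abundant of the 10 enzymes and had 369, 331 and 346 CPM in WT and 213, 193 and 189 CPM in KO. Its groups were well apart, with a log2 fold change of −0.89 (SE 0.0638), a 1.85-fold decrease. Hs6st1 had 45.62, 52.3 and 49.7 CPM in WT and 40.2, 43.4 and 45.60 CPM in KO. For Hs6st1 the highest KO library was only just below the lowest WT library, and the log2 fold change was −0.27 (SE 0.070). Another gene model on the opposite strand covers 8.07% of Hs6st1's exons. Together the pair had 53.5 ± 1.85 CPM per kilobase in WT and 33.2 ± 1.21 in KO, and the share of Hs6st1 was 16.6 ± 1.70% in WT and 23.5 ± 2.25% in KO (SD, n = 3).

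The extracellular sulfatases had the largest fitted fold changes of the 10 enzymes, though that of Sulf2 rests on 4 WT counts. With 1 library left out, the log2 fold change of Sulf2 (4.25 to 5.25) overlapped in size that of Hpse (−4.36 to −3.91). Sulf1 lies on the plus strand of chromosome 1 at 12692277 to 12861192, and its 10 annotated transcripts include 7 that code for protein. It had 241, 244 and 253 CPM in the WT libraries and 9.82, 9.28 and 8.89 CPM in the KO libraries, from 18069 counts in WT and 743 in KO. Replicates were tight in both groups, with a coefficient of variation of 2.37% in WT and 5.04% in KO, and the log2 fold change was −4.80 (SE 0.0621). Of the 15081 tested genes 47 had a more negative log2 fold change. This rank is a description, since the fall of Sulf1 was known when the set was chosen.

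Sulf2, the other 6-O-endosulfatase, went the opposite way at a far lower level. It had 2, 2 and 0 counts in the WT libraries and 64, 40 and 37 counts in the KO libraries, or 0.0903, 0.0753 and 0 CPM in WT and 2.35, 1.51 and 1.44 CPM in KO. A count of 0 in WT replicate 3 allows a level of up to 0.122 CPM (3 counts). The ratio of KO over WT was 32.5, with a 95% Clopper-Pearson interval of 12.4 to 121 that covers counting error only. The fitted log2 fold change was 4.82 (SE 0.509), and 4.25 to 5.25 when 1 library was left out. Of its exonic sequence 2.62% lies opposite Ncoa3, which stood at 56.6 ± 1.80 CPM in WT and 59.7 ± 1.11 CPM in KO. Whether reads of Ncoa3 enter the Sulf2 count was not tested.

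The gain in Sulf2 was small beside the loss in Sulf1. The length-scaled sum of both sulfatases was 21.4, 21.6 and 22.4 CPM per kilobase in the WT libraries and 1.27, 1.08 and 1.03 in the KO libraries, 19.4-fold lower in the mean. Sulf1 held 99.96 ± 0.0384% of that sum in WT and 73.7 ± 4.45% in KO (SD, n = 3), so Sulf1 remained the more abundant sulfatase transcript in every KO library. In KO replicate 1 its share was lowest, at 68.5%. The ratio of 6-O-sulfotransferase to 6-O-sulfatase transcript (Hs6st1 plus Hs6st2 over Sulf1 plus Sulf2, per kilobase) was 2.59, 2.39 and 2.38 in WT and 27.2, 30.1 and 31.5 in KO. This ratio, formed after the data were seen, was 12.1-fold higher in KO although both 6-O-sulfotransferases were lower there. Its WT denominator is nearly all Sulf1, known to be much lower in KO before the set was chosen. The rise therefore follows from that choice and is no separate result. Taken on raw counts without length scaling the ratio was 1.62 in WT and 21.8 in KO. It compares RNA levels, and neither enzyme activity nor sulfation was measured.

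**Figure D2:**
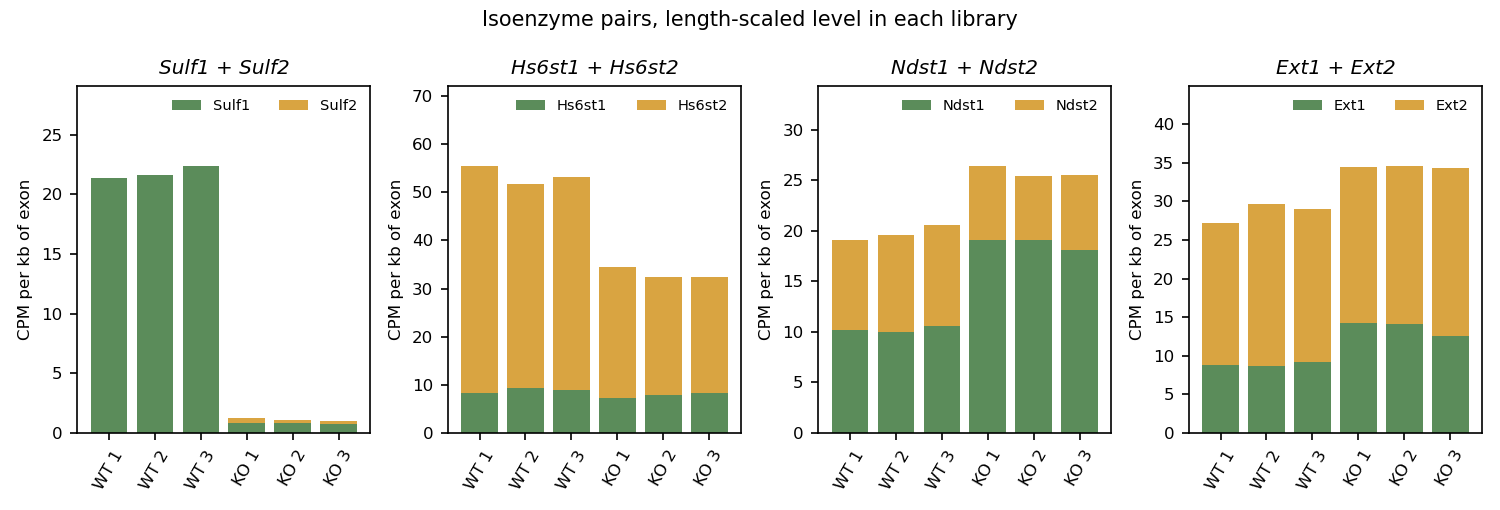
Stacked bars give the length-scaled level (CPM per kilobase of exon, linear axes from 0) of each isoenzyme pair in the 6 libraries, with the first gene in green and the second in yellow. The Sulf1 and Sulf2 sum is 21.4 to 22.4 in WT and 1.03 to 1.27 in KO, while the Ndst and Ext sums are higher in KO through Ndst1 and Ext1.

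Heparanase, an endoglucuronidase that cuts heparan sulfate into fragments, was also much lower in KO. Hpse lies on the minus strand of chromosome 5 at 100679484 to 100719716. It had 190, 235 and 214 counts in WT and 15, 9 and 17 counts in KO, which are 8.57, 8.85 and 8.68 CPM and 0.550, 0.339 and 0.660 CPM. The groups were far apart, with a log2 fold change of −4.14 (SE 0.183), and −4.36 to −3.91 when 1 library was left out. The count ratio of WT over KO, scaled to library totals, was 16.9. Its 95% Clopper-Pearson interval of 12.3 to 23.8 covers counting error only. The SD of Hpse was 0.139 CPM in WT and 0.163 CPM in KO, the latter being 31.5% of the mean, where few reads were counted.

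The sequences before the transcription start are shown for Hpse and Sulf2, the enzymes at the low end in one of the groups that have an entry in the promoter table (RefSeq, GRCm38.p6), which holds 7 of the 10 enzymes. Each is 250 bases, 5′ to 3′, ending just before the start, and capitals mark matches on either strand to the motifs searched. Those were AP-1 (TGANTCA), TEAD (GGAATG), SP1 (GGGCGG), CRE (TGACGTCA), E2F (TTTCCCGC) and the hypoxia response core (ACGTG). Hpse is at chr5:100719717-100719966, the 2 starts of Sulf2 at chr2:166155684-166155933 and chr2:166155286-166155535, all on the minus strand.
Hpse: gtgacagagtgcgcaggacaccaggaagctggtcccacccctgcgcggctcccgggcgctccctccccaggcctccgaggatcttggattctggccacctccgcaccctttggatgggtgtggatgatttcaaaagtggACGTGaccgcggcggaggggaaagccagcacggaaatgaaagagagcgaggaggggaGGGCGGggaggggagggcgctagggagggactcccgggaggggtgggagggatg
Sulf2, first start: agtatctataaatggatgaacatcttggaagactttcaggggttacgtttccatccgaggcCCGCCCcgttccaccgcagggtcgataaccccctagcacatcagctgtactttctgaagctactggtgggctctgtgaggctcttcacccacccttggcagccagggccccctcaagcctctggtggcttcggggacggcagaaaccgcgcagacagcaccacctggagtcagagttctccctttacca
Sulf2, second start: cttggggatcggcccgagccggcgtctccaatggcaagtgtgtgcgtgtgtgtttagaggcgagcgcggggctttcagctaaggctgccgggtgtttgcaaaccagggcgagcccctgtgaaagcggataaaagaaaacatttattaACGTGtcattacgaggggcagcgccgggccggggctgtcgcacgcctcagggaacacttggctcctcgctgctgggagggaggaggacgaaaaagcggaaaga

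The Hpse window held 16 CpG dinucleotides, 1 SP1 match and 1 hypoxia response core. The first Sulf2 window held 10 CpG and 1 SP1 match, and the second held 21 CpG and 1 hypoxia response core. Of 32851 promoter windows of the same length, 32.7% held the SP1 letters and 16.6% the hypoxia response letters, and the median was 6 CpG. None of the 3 windows held the letters of AP-1 (6.75% of all windows), TEAD (12.6%), CRE (1.55%) or E2F (0.895%). Matches describe letters only and do not show binding.

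**Figure D3:**
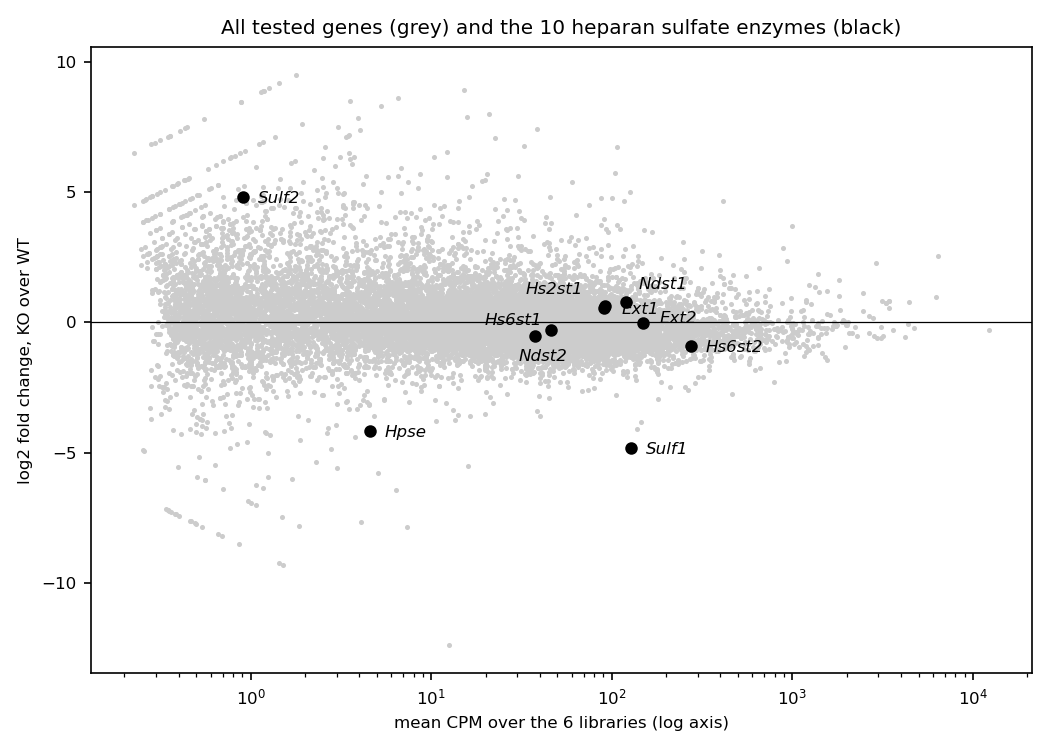
Each grey point is 1 of 15081 tested genes, with its mean CPM over the 6 libraries on a log axis and its log2 fold change (KO over WT) on a linear axis, and the 10 enzymes are black. Sulf1 (−4.80), Hpse (−4.14) and Sulf2 (4.82) lie outside the bulk of genes, and the other 7 enzymes lie between −0.89 and 0.79.

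The genes whose pattern over the 6 libraries was most like that of Sulf1 were picked by the Euclidean distance between log2(CPM + 0.1) profiles, each centred on its own mean, over 9937 named protein-coding genes that reached 5 CPM in either group. They were Tmeff1 (distance 0.623), Slc1a3 (0.664), Ptgs2 (0.925), Rhox5 (0.928) and Cyp3a13 (0.930). For Hpse they were Mcam (0.501), Hhip (0.630), Ptgs2 (0.647), Cyp3a13 (0.647) and Ulbp1 (0.678). Ptgs2 and Cyp3a13 were on both lists. Mcam, an adhesion molecule, went from 19.8 ± 1.23 CPM in WT to 1.53 ± 0.160 CPM in KO, and Hhip, a hedgehog-binding inhibitor, from 25.1 ± 1.71 to 1.95 ± 0.477 CPM (SD, n = 3). With 2 groups of libraries such a likeness mostly reflects the size of the difference between the groups.

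The rest of the pathway was read from 8 gene lists that hold none of the 10 enzymes. Of 93 listed genes 85 have a row in the count tables and 71 were tested, of which 39 rose, 19 fell and 13 were not called (81.7% called, beside 75.1% of all tested genes). The other 8 listed genes were not analysed here. Within each list the genes below are those with the smallest p and those not called, and further genes named for their role after their values were seen are marked as such.

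Heparan sulfate starts on a linker of 4 sugars, which chondroitin sulfate shares. Of the 7 linker genes 3 rose, 2 fell and 2 missed the threshold (list median 0.10 on the log2 scale). Pxylp1, a phosphatase that removes the phosphate from the linker xylose, rose from 15.5 ± 1.59 to 95.4 ± 2.82 CPM (n = 3; edgeR adjusted p = 9.2e-10), a log2 difference of 2.54 (SE 0.0718). Xylt1, a xylosyltransferase that starts the linker, rose from 5.71 ± 0.359 to 18.2 ± 0.746 CPM (log2 fold change 1.59). The other xylosyltransferase gene, Xylt2, named after its values were seen, rose from 24.6 ± 1.36 to 29.6 ± 1.77 CPM (n = 3; edgeR adjusted p = 0.0366). That call was lost with DESeq2, with no low-count filter and without KO replicate 2, KO replicate 3, WT replicate 1 or WT replicate 3 (adjusted p = 0.066 to 0.17), which left 2 linker genes higher. The galactosyltransferase B3galt6 (−0.85) and the glucuronosyltransferase B3gat3 (−0.66) fell. B4galt7 (−0.09) and the xylose kinase Fam20b (0.10) were not called, and Fam20b was called higher with upper-quartile scaling or library totals. Extl2 and Extl3, relatives of the polymerases, rose. Their relative Extl1, removed by the low-count filter, had 0, 3 and 4 counts in WT and 10, 8 and 10 in KO. With no low-count filter all 3 were called higher. Extl2 went from 18.5 ± 0.709 to 38.6 ± 2.28 CPM, and Extl3, which adds the first N-acetylglucosamine of the chain, from 39.2 ± 0.611 to 49.2 ± 2.50 CPM (log2 fold change 0.25, edgeR adjusted p = 0.00272).

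Of 11 other modification enzymes listed, 4 have a row and the remaining 7 were not analysed here. Glce, the epimerase that turns glucuronic into iduronic acid, stood at 70.9 ± 1.91 CPM in WT and 66.9 ± 2.99 CPM in KO (log2 fold change −0.16, edgeR adjusted p = 0.0208). That call was lost with upper-quartile scaling, with library totals and without KO replicate 2 (edgeR adjusted p = 0.088 to 0.19). Ndst3 (5.17 ± 0.224 and 5.85 ± 0.386 CPM) and the 3-O-sulfotransferase Hs3st5 (1.03 ± 0.177 and 0.953 ± 0.127 CPM) were not called. Ndst4, a further N-sulfotransferase, had 2 counts in WT and 59 in KO, a ratio of 27.2 with a 95% Clopper-Pearson interval of 7.20 to 230 (edgeR adjusted p = 8.9e-05). At 0.737 ± 0.239 CPM in KO it stayed far below Ndst1. Of 4 tested genes in this list 1 rose, 1 fell and 2 were not called.

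Genes for precursors and the sulfate donor were mostly higher, with 8 rising, 3 falling and 2 not called of 13 (median log2 fold change 0.40). The sulfate transporter Slc26a2 rose from 14.9 ± 0.334 to 43.1 ± 4.33 CPM (n = 3; edgeR adjusted p = 7.0e-08), a log2 difference of 1.45 (SE 0.0808). Papss1, which makes the sulfate donor PAPS, rose from 78.5 ± 1.34 to 129 ± 2.72 CPM, and Gfpt1, the first enzyme of hexosamine synthesis, rose (0.76). The Golgi PAPS transporter Slc35b2, named for its role, rose too (0.52). Bpnt1, a phosphatase that clears the by-product of PAPS use, fell from 40.2 ± 2.94 to 22.9 ± 0.418 CPM. Ugdh, which makes UDP-glucuronic acid and is likewise named for its role, fell slightly (−0.23, edgeR adjusted p = 0.00418). Ugp2 (−0.06) and Slc35a3 (0.12) were not called.

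Lysosomal breakdown of heparan sulfate goes through a series of exoenzymes. Of 10 tested genes in that list, which includes the sulfatase activators, 6 rose, 1 fell and 3 were not called (median log2 fold change 0.42). Naglu, an N-acetylglucosaminidase, rose from 16.4 ± 0.623 to 55.6 ± 4.08 CPM (n = 3; edgeR adjusted p = 1.3e-08), a log2 difference of 1.68 (SE 0.0733), and Arsg, a 3-O-sulfatase, from 2.21 ± 0.262 to 11.8 ± 0.683 CPM. Sumf1 makes the formylglycine that sulfatases, SULF1 and SULF2 included, need for activity. It rose from 45.1 ± 0.383 to 70.1 ± 0.478 CPM (log2 fold change 0.56). Gusb, beta-glucuronidase, fell from 117 ± 1.21 to 78.4 ± 1.37 CPM. Sgsh (−0.14), Hgsnat (−0.04) and Sumf2 (−0.13) were not called. Without WT replicate 1 the list had 6 higher and 3 lower, as Sgsh (−0.27) and Sumf2 (−0.21) were then called.

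All 10 tested core protein genes were called, 6 higher and 4 lower (median log2 fold change 0.51). Gpc6, a glypican, rose from 6.91 ± 0.926 to 56.3 ± 2.85 CPM (n = 3), Sdc2, a syndecan, from 163 ± 7.91 to 434 ± 30.6 CPM, and Col18a1, a basement membrane collagen that carries heparan sulfate, from 8.14 ± 0.138 to 36.8 ± 2.63 CPM. Gpc4, which lies next to Hs6st2 among tested genes, fell from 57.0 ± 1.87 to 37.5 ± 0.602 CPM. Perlecan (Hspg2), named for its role, had 368 ± 56.6 CPM in WT and 460 ± 22.2 CPM in KO (log2 fold change 0.24, edgeR adjusted p = 0.0375), and its call was lost without WT replicate 1, WT replicate 2, KO replicate 2 or KO replicate 3 (adjusted p = 0.056 to 0.14).

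The chondroitin and dermatan sulfate branch, which competes for the same linker, had 7 genes higher, 3 lower and 3 not called of 13 (median log2 fold change 0.25). With no low-count filter it had 8 higher and 4 lower, and 9 to 12 were called over the alternatives. Of the genes the filter removed, Chst7 had 11, 23 and 8 counts in WT and 0, 0 and 0 in KO. Chsy3 had 6 counts in WT and 21 in KO, and Chst13 had 0 and 1. Chst11, a chondroitin 4-O-sulfotransferase, rose from 19.5 ± 1.39 to 84.6 ± 4.04 CPM (n = 3; edgeR adjusted p = 2.3e-09), a log2 difference of 2.04 (SE 0.0673). Ust, a uronyl 2-O-sulfotransferase, rose (1.21), Chpf2 rose (1.09), and Chst15, which adds 6-O-sulfate to chondroitin, rose from 0.128 ± 0.0942 to 4.55 ± 0.700 CPM. Csgalnact1 (−0.06), Csgalnact2 (−0.11) and Dsel (0.25) were not called, though Dsel was called higher under some of the alternatives.

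Among 12 tested ligands that bind heparin, 6 rose, 5 fell and Pdgfa was not called (0.10; median of the list 0.15). Ptn, which encodes the heparin-binding growth factor pleiotrophin, rose from 30.1 ± 2.15 to 797 ± 58.9 CPM (n = 3; edgeR adjusted p = 7.9e-11), a log2 difference of 4.65 (SE 0.0802). The chemokine gene Cxcl12 rose (2.87), while the EGF family member Hbegf fell from 50.6 ± 3.55 to 11.5 ± 0.435 CPM and Bmp4 fell from 5.91 ± 0.125 to 1.92 ± 0.0926 CPM. The fibroblast growth factors Fgf2 and Fgf7, named for their role, went opposite ways, with Fgf2 higher (5.98 ± 1.05 to 12.01 ± 2.01 CPM) and Fgf7 lower (113 ± 9.24 to 65.5 ± 7.07 CPM).

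**Figure D4:**
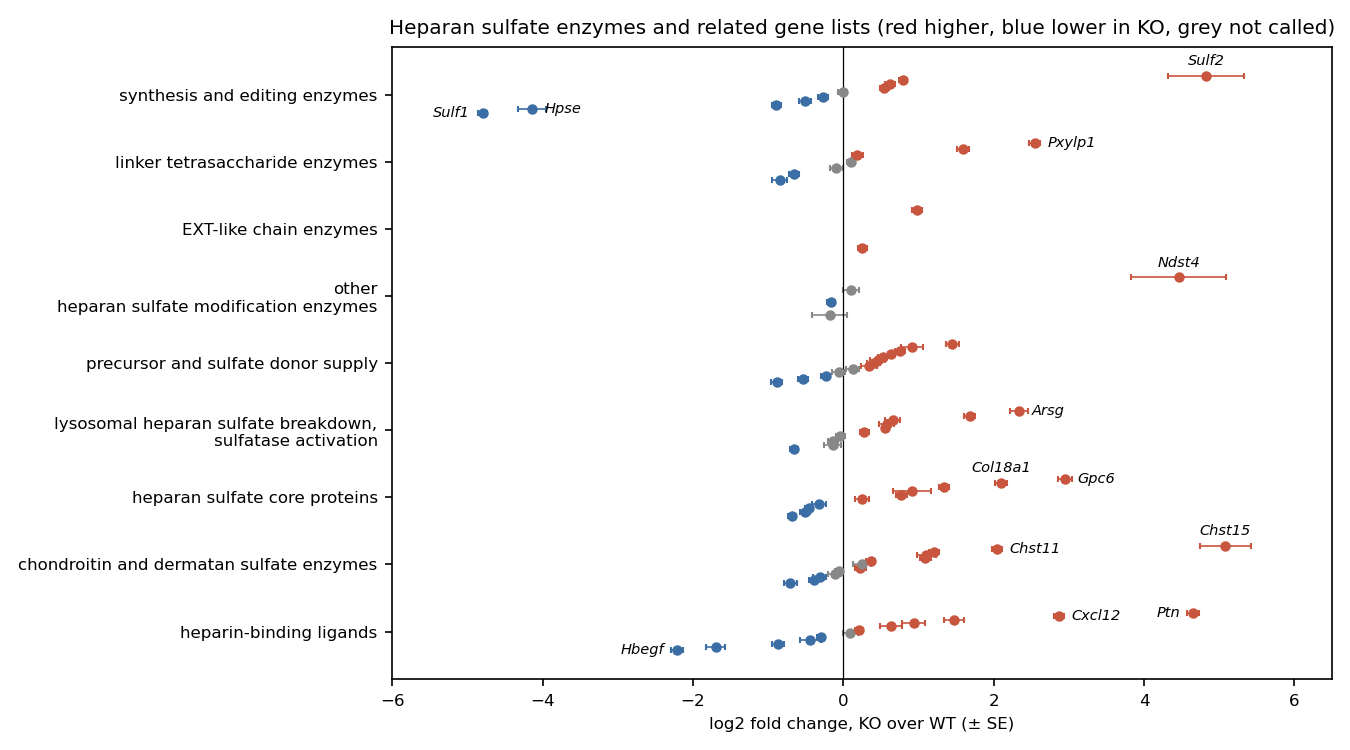
Log2 fold changes (KO over WT, points with ± 1 SE from edgeR) of the 10 synthesis and editing enzymes and of the tested genes of 8 related lists, red where called higher, blue where called lower and grey where not called. Genes beyond 2 log2 units are named, and Sulf1 and Hpse are the only genes plotted below −4.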

How the data were processed

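RNA from 6 libraries was sequenced after poly(A) selection and directional library preparation, per the labels' protocols. Reads were aligned with STAR 2.7.10b to GRCm38, per the submitters' processing notes, and the authors deposited raw counts per Ensembl gene. The counting program, its annotation and its strand setting are not stated in those sources. Symbols, positions and exonic lengths came from GENCODE M21 (GRCm38), which holds 28230 of the 28293 identifiers. No 50-base word of Sulf1, Sulf2, Hpse, Ext1, Ext2, Ndst1, Ndst2 or Hs2st1 transcripts occurs in another gene's transcripts, and 1 of Hs6st1 and 3 of Hs6st2 do.

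KO was compared with WT across all genes with edgeR 4.0.16 (R 4.3.3): TMM scaling, filterByExpr, quasi-likelihood test, Benjamini-Hochberg adjustment, called at an adjusted p under 0.05. CPM is the count over the library total times 1e+06. The enzymes, lists and naming rule were chosen with earlier results of these data known. The rule names every enzyme, up to 4 genes of smallest p per list, genes not called where 5 or fewer, 5 likest profiles for Sulf1 and Hpse, and Tmpo. Replicates of a group differed by more than sampling noise (chi-square over degrees of freedom 2.92 to 13.03). Alternatives were other scalings, filters and tests (DESeq2 1.42.0, limma-voom 3.58.1), a replicate block, other lengths and leaving out each library. The fit was tested on simulated data, where more of the calls were false than the adjusted p threshold allows for. Far fewer genes were changed there than were called here, and false calls were not split by size. How many of the calls here are false, and of what size, is therefore not known. Figures used matplotlib 3.10.9.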

Additional observations from a re-analysis of the deposited data

How the results depend on the processing

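Calls for the 10 enzymes were the same under all 14 alternative fits, at 4 higher and 5 lower each time. Ext2, not called in any, changed sign with upper-quartile scaling (0.057), library totals (0.071), the 1 CPM filter (0.0044) and without KO replicate 1 (0.024), KO replicate 2 (0.012) or WT replicate 2 (0.041), and lay between −0.072 and 0.041 when 1 library was left out. Among all genes 10514 to 12588 were called. Same-numbered libraries did not deviate together (correlations 0.15, −0.12 and 0.17), and not every library correlated best with its own number. With the number as a replicate block 11697 genes were called in place of 11330, the 10 enzymes' calls stayed at 9, and Slc35a3 (0.12), Sumf2 (−0.13) and Dsel (0.24) were called. Slc35a3 was also called with library totals (0.20). Dsel was also called with upper-quartile scaling (0.31), library totals (0.32), no low-count filter (0.23) and without KO replicate 3 (0.33). The count of other modification enzymes called, 2, was 1 with upper-quartile scaling, library totals or the 1 CPM filter, and 1 to 2 when 1 library was left out.

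Signs that changed in genes not called were those of Ugp2 (0.0019 with upper-quartile scaling, 0.016 with library totals, −0.16 to 0.0057 with 1 library left out), Hgsnat (0.025, 0.039 and −0.092 to 0.0032), Csgalnact1 (0.0082 and 0.022), Pdgfa (−0.0038 to 0.16 with 1 library left out) and Gm15777 (−0.48 to 0.068). Over 76 genes other than the enzymes, 1021 of 1060 values kept direction and call. Ncoa3, Gm33280, Plekhb2, Samd12 and Med30 were not among these 76, and their values were not checked under the alternatives. Library totals moved the median gene by 0.08.

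Isoenzyme shares depend on the length used. With the longest transcript, and then with raw counts, Sulf1 made up 81.4% and 84.3% of its pair in KO, Hs6st1 14.2% and 12.4% in WT and 20.3% and 17.9% in KO, Ndst1 54.3% and 66.3% in WT. Ndst1 was 82.9% in KO by raw counts. Ext1 was 19.4% in WT and 26.1% in KO by the longest transcript, and 33.2% in WT by raw counts. The ratio of 6-O-sulfotransferase to sulfatase transcripts, tried after seeing the data, was 2.12 and 1.62 in WT and 27.95 and 21.8 in KO. Few counts limit the values of Sulf2 in WT (4 counts) and Hpse in KO (41 counts).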

Other observations

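The study concerns chromatin and lamins, so the genes beside the enzymes were read as well, a choice made after their values were seen. Within 500 kb of Hpse 14 other genes were tested, of which 9 were lower in KO, none was higher and 5 were not called. Helq, a DNA helicase gene and the nearest tested gene upstream of Hpse, fell from 29.4 ± 1.02 CPM in WT to 13.2 ± 0.221 CPM in KO (n = 3; edgeR adjusted p = 5.2e-08), a log2 difference of −1.23 (SE 0.0655). Gm15777, an antisense transcript 1.38 kb beyond the other end of Hpse, stood at 0.416 ± 0.120 and 0.388 ± 0.147 CPM and was not called. Sulf1 has 1 tested gene within 500 kb, Ncoa2, a nuclear receptor coactivator gene, at 45.8 ± 0.934 CPM in WT and 42.3 ± 2.19 CPM in KO (edgeR adjusted p = 0.011), a call lost with upper-quartile scaling, with library totals and without KO replicate 2 (adjusted p = 0.057 to 0.091). On its other side, 716 kb away, A830018L16Rik went from 1.24 ± 0.232 to 0.0244 ± 0.0423 CPM.

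The 3 tested genes within 500 kb of Hs6st2 on the X chromosome were all lower in KO, among them Mbnl3 (log2 fold change −0.49) and Gpc4 (−0.68). Around Hs2st1 7 of 8 tested genes were higher and 1 was not called, with Selenof, 0.123 kb away, at a log2 fold change of 0.51 beside 0.62 for Hs2st1. Around Ndst1 11 of 15 were higher and 1 lower, and around Ndst2 14 of 22 were lower and 3 higher. Of the genes adjoining Ndst2, which was lower, Zswim8 at 0.111 kb was higher (0.24) and Camk2g at 0.313 kb was lower (−0.39). Around Hs6st1, also lower, 9 of 12 were lower and 2 higher. On one side the nearest tested gene was Gm33280, a long noncoding RNA 25.6 kb away, which was higher (0.95, edgeR adjusted p = 0.023). Gm33280 had few reads, at 0.430 ± 0.200 CPM in WT and 0.893 ± 0.0340 CPM in KO. On the other side it was Plekhb2, also higher (0.22) but 1189 kb away and so outside that window. Ext1 has 2 tested genes within 500 kb, Samd12, which was higher (2.47), and Med30, which was not called (−0.05). Sulf2 lies among few tested genes, with Zmynd8 174 kb away higher (0.31) and 1 other not called within 500 kb, and on its other side Trp53rkb, 637 kb away, was lower (−0.94, edgeR adjusted p = 4e-05). Ext2, itself not called, has Accs (1.80) and Cd82 (2.25) as its nearest tested neighbours, both higher in KO. Over all tested genes 37.7% were higher and 37.5% lower, and whether these neighbourhoods differ from others was not tested.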
